A study of Mus musculus with 12 samples.

Results

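The 38 genes described here encode endothelial receptors, junction proteins, surface and secreted proteins and transcription factors, with arterial and haemato-endothelial genes kept apart. They were taken by gene symbol from a deposited table of raw RNA-seq counts for 24421 genes, and the table listed all 38. The choice did not use the measured values of these libraries as a rule, although earlier results from the same table were known when the list was drawn up. RNA came from C57Bl/6 mouse embryos in which Eftud2, which encodes a spliceosomal GTPase of the U5 particle, was altered in the neural crest. Heterozygous embryos (Eftud2+/-), which the labels use as controls, and homozygous embryos (Eftud2-/-) were each sampled at embryonic day 9.0 (E9.0) and E9.5, without treatment, with 3 libraries in each of the 4 groups. All 4 groups therefore carried an altered Eftud2 allele, and no wild-type library was included. The alteration is described as specific to neural crest cells, a lineage that does not give rise to endothelial cells, and the labels name neither the Cre driver nor the exact alleles. They also disagree on the tissue, which is neural crest cells by source, cranial nerve ganglia by tissue and the embryonic head by protocol. Somite numbers and the number of embryos behind a library are not stated, so p-values measure only the spread between these libraries, which may be technical.

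Endothelial cells line all blood vessels, and in the mid-gestation head they form a plexus that is remodelled into arteries, veins and capillaries around the brain and the pharyngeal arches. Vascular endothelial growth factors act through the receptor kinases Kdr, Flt1 and Flt4, angiopoietins act through Tek and its partner Tie1, and VE-cadherin (Cdh5) holds neighbouring cells together. The ETS factor Etv2 acts briefly when mesoderm becomes endothelium and blood, other ETS factors (Erg, Fli1) and the SoxF factors (Sox7, Sox17, Sox18) act in the endothelium itself, and Tal1, Lyl1 and Lmo2 work together in both endothelial and blood precursors.

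Libraries held between 13914543 and 31172708 counts, and levels are given as CPM, counts divided by the TMM-scaled library size in the usual unit. The ribosomal transcript Rn45s took 4.40% to 37.4% of the counts, with the highest share in heterozygous E9.0 replicate 1. Eftud2 itself stood at 302, 275 and 279 CPM in heterozygous E9.0 libraries and at 236, 235 and 232 CPM in homozygous ones (log2 fold change -0.29, edgeR quasi-likelihood adjusted p = 0.0193). That call was lost without heterozygous E9.0 replicate 1 or homozygous E9.0 replicate 1 or 3 (adjusted p 0.0408 to 0.0713 over the 6 fits), and it held in 11 of 14 alternative settings, with an estimate of -0.0822 when total counts were the scale. At E9.5 it stood at 248, 255 and 264 CPM against 226, 221 and 226 CPM (log2 fold change -0.19, edgeR adjusted p = 0.0906), and at both stages every homozygous library lay below every heterozygous one. The libraries held more than crest cells and ganglion neurons: summed over their marker lists, neural crest genes reached 176 to 299 CPM and ganglion neuron genes 87.9 to 216 CPM, while erythroid genes reached 555 to 5308 CPM and heart muscle and endocardium genes 118 to 3219 CPM.

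Heterozygous E9.5 replicate 2 stood apart for the endothelial genes. It was the lowest of its group for 35 of the 38, whereas it was the lowest of its group for 37.2% of all 14810 genes tested, and its median ratio to the mean of the other 2 libraries was 0.694. Summed over the 38 genes, the heterozygous E9.5 libraries reached 611, 435 and 644 CPM, and the homozygous ones 883, 743 and 828 CPM. Homozygous E9.5 replicate 2 was the lowest of its own group for 31 of the 38, with a median ratio of 0.875. Both of these libraries also had the highest sum of heart muscle and endocardium genes in their group, 2726 CPM and 3219 CPM, and the lowest sum of neural crest genes, 218 CPM and 176 CPM. The part of this in the endothelial values was not tested. Counts of calls at E9.5 are therefore also given without heterozygous replicate 2, as are single positive estimates that its absence lowered by over 1.5 times. In the E9.0 groups the summed level was even, at 688, 688 and 646 CPM in heterozygous libraries and 780, 749 and 775 CPM in homozygous ones.

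**Figure D1:**
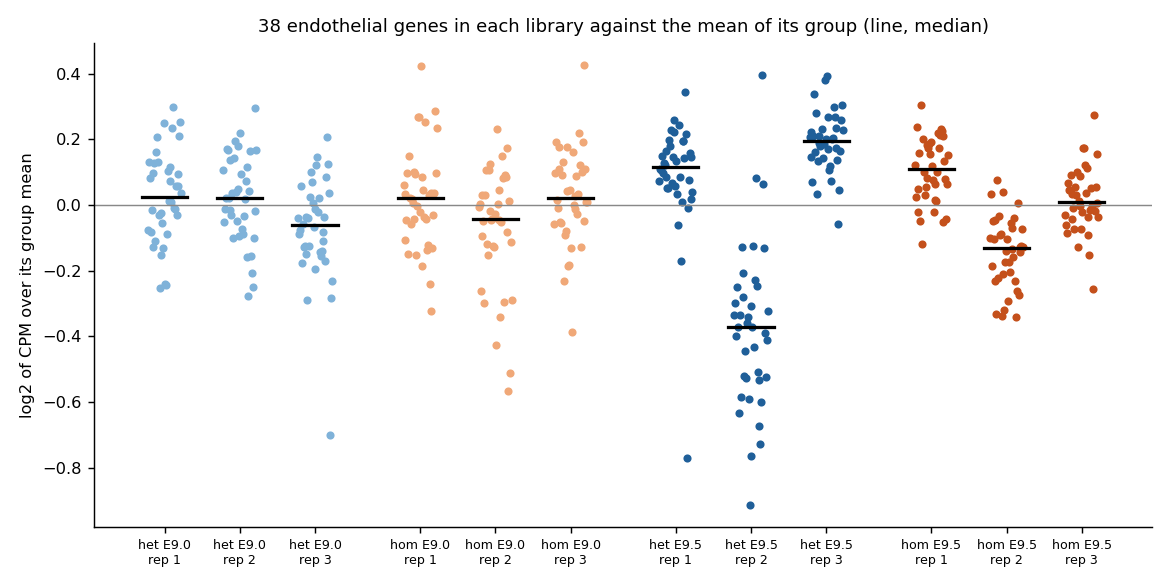
Each point is 1 of the 38 endothelial genes in 1 library (x axis), plotted as the log2 of its CPM over the mean CPM of its group (y axis); black lines are medians over the genes. Heterozygous E9.5 replicate 2 lies below its group mean for most genes, being the lowest of its group for 35 of 38.

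RefSeq promoter sequences were used for 20 of the 38 genes, and 6 are shown because the genes behaved differently in the counts described further on: Kdr and Tek were called higher in homozygous embryos at E9.5, Etv2 had the largest fitted difference, Tal1 and Lyl1 were among the 3 smallest, and Gja4 is an arterial gene. Each is the 250 bases before a RefSeq start in GRCm38.p6, written 5′ to 3′ on the gene's own strand. Capitals mark 4 motifs searched on both strands. CAGGAA and its variant CCGGAA share a core bound by ETS factors. AACAAT is a motif of the SoxF type and AGATAA is one of the GATA type. On the opposite strand the ETS motifs read TTCCTG or TTCCGG, the SoxF-type motif reads ATTGTT and the GATA-type motif reads TTATCT.
Kdr (chr5:75978456-75978705, minus strand): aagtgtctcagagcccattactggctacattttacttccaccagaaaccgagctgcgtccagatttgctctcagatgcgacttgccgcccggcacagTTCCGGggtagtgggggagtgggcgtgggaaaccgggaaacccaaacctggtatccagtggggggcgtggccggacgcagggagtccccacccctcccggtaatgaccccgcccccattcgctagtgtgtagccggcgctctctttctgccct
Tek (chr4:94739039-94739288, plus strand): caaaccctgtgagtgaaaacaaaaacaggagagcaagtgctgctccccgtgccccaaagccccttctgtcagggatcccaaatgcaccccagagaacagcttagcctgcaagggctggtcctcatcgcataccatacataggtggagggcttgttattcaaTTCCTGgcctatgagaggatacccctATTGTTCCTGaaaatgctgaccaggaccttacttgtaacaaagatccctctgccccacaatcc
Etv2 (chr7:30635853-30636102, minus strand): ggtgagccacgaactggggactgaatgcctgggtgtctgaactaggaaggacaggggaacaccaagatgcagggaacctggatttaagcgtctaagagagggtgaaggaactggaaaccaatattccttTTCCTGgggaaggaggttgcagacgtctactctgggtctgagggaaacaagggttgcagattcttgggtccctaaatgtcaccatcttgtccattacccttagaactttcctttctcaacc
Tal1 (chr4:115056176-115056425, plus strand): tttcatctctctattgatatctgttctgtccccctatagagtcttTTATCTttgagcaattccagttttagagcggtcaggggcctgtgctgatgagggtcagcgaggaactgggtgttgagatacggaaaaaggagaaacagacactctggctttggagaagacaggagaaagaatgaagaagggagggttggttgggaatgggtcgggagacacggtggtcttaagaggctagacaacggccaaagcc
Lyl1 (chr8:84701207-84701456, plus strand): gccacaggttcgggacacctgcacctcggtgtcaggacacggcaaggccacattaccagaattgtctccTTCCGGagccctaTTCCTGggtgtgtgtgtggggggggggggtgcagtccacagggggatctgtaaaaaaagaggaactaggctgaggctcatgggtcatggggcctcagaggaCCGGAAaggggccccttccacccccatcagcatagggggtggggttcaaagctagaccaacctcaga
Gja4 (chr4:127314040-127314289, minus strand): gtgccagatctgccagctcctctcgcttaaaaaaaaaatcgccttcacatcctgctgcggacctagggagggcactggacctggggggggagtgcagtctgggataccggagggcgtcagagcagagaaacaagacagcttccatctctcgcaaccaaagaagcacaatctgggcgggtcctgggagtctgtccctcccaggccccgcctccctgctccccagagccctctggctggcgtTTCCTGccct
In Tek, an AACAAT match and a CAGGAA match on the opposite strand overlap in 1 run, with a second CAGGAA match upstream. Tal1 had another RefSeq start, not shown, whose 250 bases (chr4:115057561-115057810) held 0 matches. CAGGAA was found for 12 of the 20 genes, in 13 of their 25 promoters (52.0%), against 25.7% of 32851 promoters in the whole table and 21.8% of the 14094 promoters of tested genes. CCGGAA was found in 8.0% of the promoters of the 20 genes, in 12% of all promoters and in 19.9% of those of tested genes. AACAAT was found in 12%, 9.42% and 5.27% of these in turn, and AGATAA in 8.0%, 9.99% and 5.95%, so that for AGATAA the direction rests on the promoters compared with, and 2 to 3 genes held each of these 3 motifs. A match is a run of letters and was not tied to binding, and genes with and without a match were called at E9.5: Kdr and Tek were both called, although the Kdr window held CCGGAA and no CAGGAA.

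At E9.5 some endothelial genes of every role but the arterial one were called higher in homozygous than in heterozygous libraries. Of the 38, 20 were higher and 0 lower past the threshold (edgeR quasi-likelihood test, Benjamini-Hochberg adjusted p under 0.05 over 14810 genes), while 1.19% of all genes tested were called higher and 0.702% lower. The median log2 fold change of the 38 was 0.58, against -0.00255 over all genes tested, and 37 of the 38 estimates were positive. In bulk RNA, more cells of a type and more RNA per cell cannot be told apart. For 32 of the 38, all 3 homozygous libraries lay above all 3 heterozygous ones, as did 11.4% of all genes tested, while none lay wholly below, as did 9.47%, and the 20 called genes were all among these 32. Without heterozygous replicate 2, the median fell to 0.44 and 12 genes were called, all of them among the 20. The shares of all genes given above are those of the fit with all libraries. All 3 homozygous libraries lay above heterozygous replicates 1 and 3 for 32 genes. Leaving out replicate 2 could change this count little, because that library was the lowest of its group for 35 of the 38. The median ratio of group means went from 1.5 to 1.36. The number of calls was also sensitive to other libraries and to the model: it was 7 without homozygous E9.5 replicate 1, 7 without homozygous E9.5 replicate 3, and 7 when only the 6 E9.5 libraries were fitted, so that the spread was no longer shared with E9.0. With total counts as the scale it was 8. Kdr, Flt1, Tek, S1pr1, Cdh5 and Mmrn2 stayed called in all 6 fits with a library left out.

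**Figure D2:**
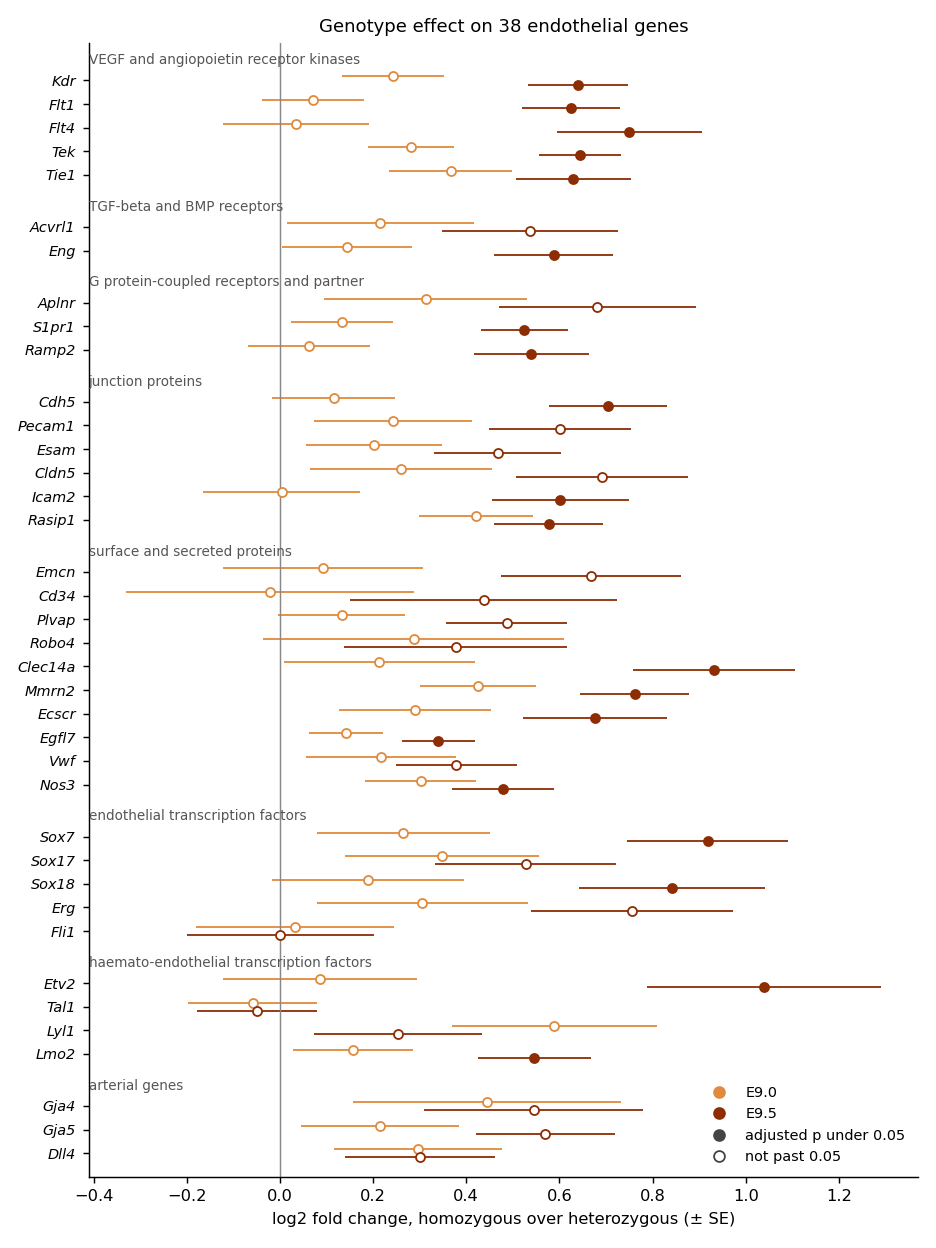
Log2 fold change of homozygous over heterozygous libraries (x axis, whiskers ± SE) for each of the 38 endothelial genes (y axis, by role) at E9.0 (light) and E9.5 (dark); filled points have an adjusted p under 0.05. At E9.5, 20 points are filled and all lie right of 0, and at E9.0 none is filled.

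The 5 receptor kinases were all higher in homozygous embryos at E9.5, with log2 fold changes between 0.62 and 0.75. Kdr (chr5:75932827-75978458), the main signalling receptor for VEGF-A, was at 65.4, 49.3 and 71.9 CPM in heterozygous libraries and at 105, 90.3 and 94.8 CPM in homozygous ones (log2 fold change 0.64 ± 0.11, edgeR adjusted p = 0.00768). Flt1 (chr5:147561604-147726011), which binds VEGF-A tightly and largely acts as a decoy, was at 17.6, 13.3 and 18.1 CPM against 25.6, 25.7 and 24.1 CPM (log2 fold change 0.62 ± 0.10, edgeR adjusted p = 0.00585). Flt4 (chr11:49609263-49652739), the receptor for VEGF-C, was at 15.1, 10.6 and 16.3 CPM against 27.7, 20.7 and 22.2 CPM, and its log2 fold change was 0.75 ± 0.15 (edgeR, adjusted p = 0.0249). For these 3 genes the heterozygous replicate 2 library was the lowest of the 6, and the groups did not overlap. Tek (chr4:94739289-94874976), the angiopoietin receptor, was the most precisely measured of the group: 29.5, 22.3 and 27.9 CPM in heterozygous and 40.9, 40.1 and 43.5 CPM in homozygous libraries gave a log2 difference of 0.64 ± 0.09 (edgeR adjusted p = 0.00108), the smallest adjusted p of the 38. Tie1, the orphan partner of Tek, was at 23.3, 16.8 and 25.1 CPM against 34.8, 31.3 and 34.7 CPM (log2 fold change 0.63 ± 0.12, edgeR adjusted p = 0.0154). All 5 stayed called without heterozygous replicate 2. Flt4 and Tie1 lost the call without homozygous replicate 1 or 3: over the 6 fits that left out 1 library, the edgeR adjusted p ran from 0.0178 to 0.0764 for Flt4 and from 0.0101 to 0.0597 for Tie1. With only the E9.5 libraries in the fit, Flt1 and Tek stayed called, and Kdr, Flt4 and Tie1 did not. For Kdr the edgeR adjusted p was then 0.124, within a range of 3.52e-06 to 0.124 over its 14 alternative settings. Kdr was called in 12 of the 14, and the other miss was with total counts as the scale. Flt4 was called in 13 of its 14 and Tie1 in 12.

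Of the 2 receptors for TGF-beta and BMP ligands, Eng was called and Acvrl1 was not. Eng, a co-receptor for BMP9 and BMP10, was at 17.6, 12.8 and 18.1 CPM in heterozygous and 23.5, 23.5 and 25.9 CPM in homozygous E9.5 libraries (log2 fold change 0.59 ± 0.13, edgeR adjusted p = 0.0268). Every homozygous library was above every heterozygous one, but the call was lost without heterozygous replicate 2 (log2 fold change 0.45, adjusted p = 0.0838) and without homozygous replicates 1, 2 or 3, with an edgeR adjusted p of 0.0280 to 0.107 over the 6 fits. Acvrl1, the kinase that pairs with Eng, had an estimate of 0.54 ± 0.19 (edgeR, adjusted p = 0.207), and its heterozygous libraries were spread from 4.70 to 9.20 CPM. The Acvrl1 estimate was 0.30 without heterozygous replicate 2.

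Among the G protein-coupled receptors and their partner, S1pr1 and Ramp2 were higher and Aplnr did not pass the threshold. S1pr1 (chr3:115710433-115715072), the sphingosine-1-phosphate receptor that stabilises vessels, was at 13.3, 11.4 and 12.8 CPM in heterozygous and 16.6, 18.9 and 18.4 CPM in homozygous E9.5 libraries (log2 fold change 0.52 ± 0.09, edgeR adjusted p = 0.00776). Ramp2, which makes the calcitonin receptor-like receptor responsive to adrenomedullin, was at 8.90, 7.43 and 9.41 CPM against 14.3, 10.7 and 12.4 CPM (log2 fold change 0.54 ± 0.12, edgeR adjusted p = 0.0333). The S1pr1 call held whichever library was left out and was lost with total counts as the scale (edgeR adjusted p = 0.185, the highest over its 14 alternative settings), whereas the Ramp2 call was lost without heterozygous replicate 1 or 2 or homozygous replicate 1 or 3, with an edgeR adjusted p of 0.0303 to 0.140 over the 6 fits. Aplnr, the apelin receptor, was at 30.9, 18.4 and 33.5 CPM against 54.6, 35.1 and 42.9 CPM; its groups did not overlap, but both were widely spread and the log2 fold change of 0.68 ± 0.21 had an edgeR adjusted p of 0.174.

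Of the 6 junction genes, Cdh5, Icam2 and Rasip1 were higher in homozygous libraries at E9.5, and Pecam1, Esam and Cldn5 had positive estimates that did not pass. Cdh5 (chr8:104101625-104144511) was at 29.8, 23.7 and 32.7 CPM in heterozygous libraries and at 50.1, 45.6 and 44.4 CPM in homozygous ones (log2 fold change 0.70 ± 0.13, edgeR adjusted p = 0.0113). The lowest homozygous library was above the highest heterozygous one by more than 10 CPM, and the call held in all 6 fits with a library left out. Rasip1, a Ras-interacting protein needed to open vessel lumens, was at 22.7, 16.2 and 22.7 CPM against 34.5, 26.5 and 30.9 CPM (log2 fold change 0.58 ± 0.12, edgeR adjusted p = 0.0181). It lost the call without homozygous replicate 1 or 3, with an edgeR adjusted p of 0.0166 to 0.0764 over the 6 fits. Icam2, an adhesion molecule of resting endothelium, was at 4.97, 3.70 and 5.58 CPM against 7.59, 7.37 and 6.56 CPM, and its log2 fold change of 0.60 ± 0.15 was the one closest to the threshold (edgeR, adjusted p = 0.0468). That call held only without heterozygous replicate 3, and the edgeR adjusted p over the 6 fits ran from 0.0327 to 0.168. Pecam1, the platelet and endothelial adhesion molecule, was at 18.9, 11.5 and 19.0 CPM against 25.5, 23.4 and 26.0 CPM (log2 fold change 0.60 ± 0.15, edgeR adjusted p = 0.0647). The tight junction protein Cldn5 (0.69 ± 0.18, adjusted p = 0.0887) and the adhesion molecule Esam (0.47 ± 0.14, adjusted p = 0.105) had log2 fold changes of like size in the same edgeR fit. For these 3 genes too, all homozygous libraries were above all heterozygous ones. Pecam1 was called without heterozygous replicate 1 or 3 and Cldn5 without homozygous replicate 2, with edgeR adjusted p of 0.0429 to 0.185 and 0.0488 to 0.250 over the 6 fits. The log2 fold changes of Pecam1 and Esam were 0.40 and 0.29 without heterozygous replicate 2.

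The 10 surface and secreted proteins gave 5 calls at E9.5, all higher in homozygous embryos. Clec14a (chr12:58264720-58269290), a C-type lectin of sprouting endothelium, had the largest estimate of the 10, with 6.22, 4.70 and 7.32 CPM in heterozygous and 12.2, 9.46 and 13.1 CPM in homozygous libraries (log2 fold change 0.93 ± 0.17, edgeR adjusted p = 0.0112). Mmrn2 (chr14:34375465-34404287), an extracellular matrix protein that binds Clec14a, was at 8.72, 8.33 and 10.2 CPM against 15.2, 13.7 and 17.4 CPM (log2 fold change 0.76 ± 0.12, edgeR adjusted p = 0.00279). This ligand and receptor pair thus stood higher together, and heterozygous replicate 2 was only slightly below its group for Mmrn2. Ecscr, a regulator of endothelial chemotaxis, was at 4.88, 3.05 and 4.44 CPM against 6.88, 5.71 and 7.16 CPM (log2 fold change 0.68 ± 0.15, edgeR adjusted p = 0.0333). Nos3, the endothelial nitric oxide synthase, was at 11.1, 9.30 and 12.7 CPM against 16.4, 14.6 and 15.0 CPM (log2 fold change 0.48 ± 0.11, edgeR adjusted p = 0.0322). Egfl7, a secreted protein of the vessel wall, had the smallest difference of the 20 called genes but a narrow spread: it was at 33.9, 27.3 and 34.7 CPM against 40.9, 38.9 and 41.4 CPM (log2 fold change 0.34 ± 0.08, edgeR adjusted p = 0.0334). In the fits that left out 1 library, Mmrn2 stayed called throughout and Clec14a lost the call only without homozygous replicate 3 (edgeR adjusted p over the 6 fits, 0.0108 to 0.0569). Ecscr, Egfl7 and Nos3 lost it in 4, 4 and 5 of the 6 fits, heterozygous replicate 2 among them, with edgeR adjusted p of 0.0223 to 0.134, 0.0280 to 0.126 and 0.0177 to 0.126. Ecscr was also lost without heterozygous replicate 3 and homozygous replicates 1 and 3, Egfl7 without each homozygous replicate, and Nos3 without each library but heterozygous replicate 3. The other 5 genes had positive estimates that did not pass: 0.67 ± 0.19 for Emcn, 0.49 ± 0.13 for Plvap, 0.44 ± 0.29 for Cd34, 0.38 ± 0.24 for Robo4 and 0.38 ± 0.13 for Vwf, with edgeR adjusted p between 0.0759 and 0.604. Plvap was called without heterozygous replicate 3 (edgeR adjusted p over the 6 fits, 0.0417 to 0.225). Cd34, a sialomucin of endothelium and blood progenitors, showed how much 1 library weighed, at 41.2, 18.7 and 45.9 CPM in the heterozygous group. When heterozygous replicate 2 was left out, the log2 fold change was 0.13 for Cd34, 0.10 for Robo4 and 0.44 for Emcn.

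Among the 5 endothelial transcription factors, Sox7 and Sox18 were higher in homozygous libraries, and the Fli1 estimate was near 0. Sox7 (chr14:63943673-63950732) was at 4.21, 2.58 and 4.23 CPM in heterozygous and 8.06, 6.20 and 6.49 CPM in homozygous E9.5 libraries (log2 fold change 0.92 ± 0.17, edgeR adjusted p = 0.0113). Sox18 (chr2:181669836-181671640) was at 5.67, 3.55 and 6.18 CPM against 10.6, 7.80 and 9.08 CPM (log2 fold change 0.84 ± 0.20, edgeR adjusted p = 0.0444). The SoxF factors guide arterial and lymphatic fate, and for both of these genes the groups did not overlap. Sox7 lost the call only without homozygous replicate 1 (edgeR adjusted p over the 6 fits, 0.0160 to 0.0541), and Sox18 kept it only without heterozygous replicate 3 (0.0359 to 0.147). The third member of the family, Sox17, was at 5.09, 2.79 and 5.47 CPM against 7.18, 6.20 and 5.74 CPM (log2 fold change 0.53 ± 0.19, edgeR adjusted p = 0.232). Erg, an ETS factor that maintains endothelial identity, was at 7.59, 3.61 and 6.75 CPM against 11.8, 7.95 and 10.5 CPM (log2 fold change 0.76 ± 0.22, edgeR adjusted p = 0.112), and it was called only without heterozygous replicate 1 (0.0408 to 0.271 over the 6 fits). Sox17 and Erg had log2 fold changes of 0.28 and 0.49 without heterozygous replicate 2. The related ETS factor Fli1 (chr9:32422204-32542861), which is also made in neural crest derivatives and blood cells, was at 39.1, 22.2 and 39.6 CPM against 39.3, 28.1 and 33.6 CPM. Its groups overlapped, and its log2 fold change was 0.00 ± 0.20 (edgeR, adjusted p = 0.999). Without heterozygous replicate 2 the Fli1 estimate was -0.22, and over all alternatives, leaving out each library among them, it ran from -0.23 to 0.14.

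Of the 4 haemato-endothelial factors, Etv2 and Lmo2 were higher and Tal1 and Lyl1 did not pass. Etv2 (chr7:30633616-30635852) had the largest estimate of all 38 genes at E9.5 but was close to its lowest level: 0.549, 1.23 and 1.03 CPM in heterozygous and 2.23, 1.93 and 1.61 CPM in homozygous libraries, with 18 counts in the lowest of the 6. Its log2 fold change was 1.04 ± 0.25 (edgeR, adjusted p = 0.0444), and here heterozygous replicate 2 was the highest of its group, not the lowest. Without that library the difference was larger (log2 fold change 1.31, adjusted p = 0.0294), and without any of the other 5 E9.5 libraries the call was lost, with an edgeR adjusted p of 0.0294 to 0.147 over the 6 fits. Lmo2, a bridging protein in the Tal1 complex, was at 13.6, 9.30 and 13.7 CPM against 18.8, 16.1 and 18.5 CPM (log2 fold change 0.55 ± 0.12, edgeR adjusted p = 0.0283). That call was lost without heterozygous replicate 2 or homozygous replicates 1 or 3, with an edgeR adjusted p of 0.0280 to 0.106 over the 6 fits. Tal1 (chr4:115056426-115071755), the basic helix-loop-helix factor of blood and endothelial precursors, was at 23.1, 24.3 and 22.3 CPM against 21.7, 18.6 and 27.2 CPM, with overlapping groups (log2 fold change -0.05 ± 0.13, edgeR adjusted p = 0.934). Its paralog Lyl1 was at 4.54, 3.93 and 4.44 CPM against 5.63, 4.70 and 5.06 CPM (log2 fold change 0.25 ± 0.18, edgeR adjusted p = 0.622). Tal1, Fli1 and Lyl1 had the 3 lowest estimates of the 38.

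None of the 3 arterial genes was called at E9.5, although all had positive estimates. Gja5, the connexin 40 gene, was at 10.6, 7.87 and 12.9 CPM in heterozygous and 16.2, 14.7 and 15.6 CPM in homozygous libraries (log2 fold change 0.57 ± 0.15, edgeR adjusted p = 0.0675). Gja4, the connexin 37 gene, was at 4.21, 2.64 and 4.55 CPM against 5.36, 5.07 and 6.15 CPM (log2 fold change 0.54 ± 0.24, edgeR adjusted p = 0.324). For both connexins the groups did not overlap. Dll4, the Notch ligand of arterial endothelium and tip cells, was at 5.52, 4.28 and 6.29 CPM against 7.32, 6.02 and 6.41 CPM, which overlapped, and its log2 fold change was 0.30 ± 0.16 (edgeR, adjusted p = 0.458). The median of the 3 estimates was 0.54, against 0.58 for all 38. Without heterozygous replicate 2 these medians were 0.34 and 0.44, and the estimates of Gja4 and Dll4 were 0.34 and 0.16. Gja5 was called in 1 of the 6 fits that left out 1 library, that without heterozygous replicate 3, with an edgeR adjusted p of 0.0203 to 0.188 over the 6.

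**Figure D3:**
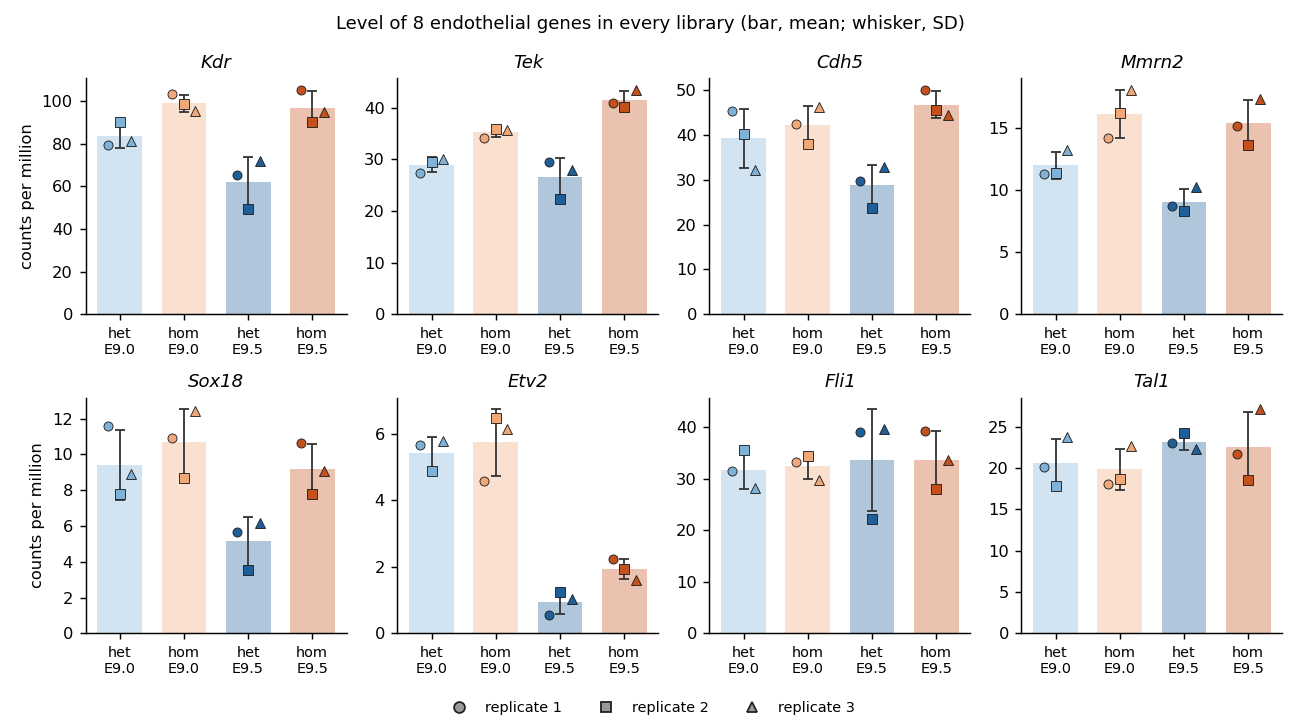
CPM (y axis, from 0) of 8 endothelial genes in all 12 libraries, grouped by genotype and stage (x axis); bars are group means, whiskers SD (n = 3), and marker shapes give the replicate number. Kdr, Tek, Cdh5, Mmrn2, Sox18 and Etv2 have no overlap between genotypes at E9.5, while Fli1 and Tal1 overlap.

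At E9.0 no endothelial gene passed the threshold in either direction (edgeR, adjusted p at least 0.156), while 0.432% of all genes tested were called higher and 0.155% lower. The estimates still leaned one way, with a median log2 fold change of 0.22 and 36 of 38 positive, and 7 of the 38 had an unadjusted p under 0.05, as did 1969 of all 14810 genes tested. Some lists of other cell types leaned the same way at E9.0: blood progenitor, macrophage and megakaryocyte genes had 10 of 10 positive estimates (median 0.56). Heart muscle and endocardium genes had 9 of 10 (0.43), mural genes 8 of 10 (0.27) and ganglion neuron genes 8 of 11 (0.25). Other lists leaned the other way. Erythroid genes had 9 of 10 negative (median -0.14), neural crest genes 6 of 7 (-0.27) and yolk sac endoderm genes 4 of 6 (-0.34). The part of these lists in the endothelial values was not tested. DESeq2 and limma-voom also called 0 of the 38. For 12 of the 38 all homozygous libraries lay above all heterozygous ones, as did 9.07% of all genes tested. Rasip1, one of these 12, was at 23.7, 23.3 and 25.3 CPM in heterozygous and 32.2, 31.4 and 33.3 CPM in homozygous E9.0 libraries (log2 fold change 0.42 ± 0.12, edgeR adjusted p = 0.157). Mmrn2 was at 11.3, 11.4 and 13.3 CPM against 14.2, 16.2 and 18.1 CPM (log2 fold change 0.43 ± 0.12, edgeR adjusted p = 0.156). It was called in 1 of 14 alternative settings, a replicate block with GC and length offsets (edgeR adjusted p = 0.0493). Tek was at 27.4, 29.4 and 30.1 CPM against 34.1, 36.0 and 35.7 CPM (log2 fold change 0.28 ± 0.09, edgeR adjusted p = 0.209). All 12, not these 3 alone, sat clear of the heterozygous range at both stages. By contrast, Cdh5 was at 45.3, 40.3 and 32.1 CPM against 42.5, 38.1 and 46.3 CPM and Flt4 at 31.3, 29.3 and 28.0 CPM against 31.0, 25.2 and 34.5 CPM, both with overlapping groups. The largest E9.0 estimate belonged to Lyl1, at 0.59 ± 0.22 (edgeR, adjusted p = 0.264), which ran from 0.31 without homozygous replicate 3 to 0.82 without homozygous replicate 2, and the lowest to Tal1, at -0.06 ± 0.14 (edgeR, adjusted p = 0.896), which turned to 0.13 with total counts as the scale. With total counts as the scale, which the Rn45s share enters, the median of all genes was 0.19 at E9.0 and that of the 38 rose to 0.41.

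Averaged over both stages, 15 of the 38 were higher in homozygous libraries and 0 lower, against 1.82% and 1.14% of all genes tested, and the median log2 fold change was 0.39. The 15 were Kdr, Flt1, Tek, Tie1, Eng, S1pr1, Cdh5, Rasip1, Clec14a, Mmrn2, Ecscr, Egfl7, Nos3, Sox7 and Lmo2, with log2 fold changes between 0.24 and 0.59. Mmrn2 had 0.59 ± 0.09 (edgeR, adjusted p = 9.77e-04), Tek 0.46 ± 0.06 (6.24e-04), Rasip1 0.50 ± 0.08 (0.00377), Kdr 0.44 ± 0.08 (0.00639), Tie1 0.50 ± 0.09 (0.00661) and Nos3 0.39 ± 0.08 (0.0144). These 6 stayed called in all 12 fits with a library left out, and no receptor kinase but Flt4 (0.39 ± 0.11, adjusted p = 0.0783) missed the threshold. Leaving out heterozygous E9.0 replicate 3 or 2 brought the count to 7 or 8, leaving out homozygous E9.5 replicate 1 brought it to 9, and over all 12 fits it ranged from 7 to 18.

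Whether the genotype effect was larger at E9.5 than at E9.0 was tested directly, and 0 of the 38 passed in the edgeR fit, against 0.00675% of all genes called higher and 0.0608% lower. The difference between the stages was positive for 36 of the 38, with a median of 0.37 log2 units, and 14 of the 38 had an unadjusted p under 0.05, as did 1274 of all 14810 genes tested. DESeq2 and limma-voom called 0 as well. The 3 largest differences were those of Etv2, at 0.95 ± 0.33 (edgeR, adjusted p = 0.412), Clec14a, at 0.72 ± 0.27 (0.484), and Flt4, at 0.72 ± 0.22 (0.348). Lyl1 and Fli1 were the 2 genes with a negative value, at -0.34 ± 0.28 and -0.03 ± 0.29. The median difference was 0.17 when heterozygous E9.5 replicate 2 and heterozygous E9.0 replicate 1 were both left out, so the calls at E9.5 and their absence at E9.0 do not by themselves show that the stages differed.

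From E9.0 to E9.5, more endothelial genes fell than rose in heterozygous libraries. Of the 38, 13 were lower and 4 higher at E9.5, against 16.0% and 19.2% of all genes tested, and the median log2 fold change was -0.26, against 0.00822 over all genes. For 15 genes all E9.5 libraries lay below all E9.0 libraries and for 3 above, against 22.5% and 25.2% of all genes tested. Etv2 fell furthest, from 5.65, 4.88 and 5.76 CPM to 0.549, 1.23 and 1.03 CPM (log2 fold change -2.53 ± 0.24, edgeR adjusted p = 9.97e-07). Flt4 went from 31.3, 29.3 and 28.0 CPM to 15.1, 10.6 and 16.3 CPM (log2 fold change -1.07 ± 0.16, edgeR adjusted p = 1.42e-04), and Sox18 from 11.6, 7.78 and 8.90 CPM to 5.67, 3.55 and 6.18 CPM (log2 fold change -0.87 ± 0.21, edgeR adjusted p = 0.00448). For these 3 genes, no E9.5 library reached the E9.0 range. The 2 largest rises were those of Robo4 and Vwf. Robo4, a receptor that stabilises vessels, went from 1.25, 1.72 and 1.46 CPM to 3.17, 1.70 and 3.80 CPM (log2 fold change 0.94 ± 0.28, edgeR adjusted p = 0.0158), although the stages overlapped and the call was lost in 4 of the 6 fits with a library left out (edgeR adjusted p 7.24e-04 to 0.0812; lost without heterozygous E9.0 replicate 1 or 3 or E9.5 replicate 1 or 3). Vwf, von Willebrand factor, went from 4.99, 4.67 and 4.17 CPM to 6.92, 8.25 and 8.20 CPM (log2 fold change 0.77 ± 0.15, edgeR adjusted p = 7.36e-04). Erg, Egfl7, Sox7, Flt1, Ramp2, Ecscr, Cdh5, Kdr, Lmo2 and Mmrn2 also fell, by between 0.41 and 0.68 log2 units, and S1pr1 and Lyl1 also rose, by 0.43 and 0.68. Among these, Erg lost the call in 4 of the 6 fits (each E9.0 replicate or E9.5 replicate 2 left out), Cdh5 in 3 (E9.0 replicates 1 and 2, E9.5 replicate 2), Mmrn2 in 3 (E9.0 replicate 3, E9.5 replicates 1 and 2), Sox7 in 2 (E9.0 replicate 2, E9.5 replicate 2) and Lyl1 in 1 (E9.0 replicate 2), with edgeR adjusted p of up to 0.0834, 0.0772, 0.0882, 0.0740 and 0.0759. Marker lists of other cells also moved with stage in heterozygous libraries. The median log2 fold change was 3.68 for heart muscle and endocardium genes, with 8 of 10 called higher and 1 lower. It was 1.73 for erythroid genes (10 of 10 higher) and 1.65 for mural genes (6 of 10). Blood progenitor, macrophage and megakaryocyte genes had 1.36 (7 of 10). For ganglion neuron genes it was 1.32, with 9 of 11 called higher and 1 lower. Neural crest genes had a median of -0.43, with 4 of 7 called lower and 1 higher, and yolk sac endoderm genes one of -0.18, with 1 of 6 called in each direction. Their part in the endothelial stage values was not tested. The endothelial counts leaned on heterozygous E9.5 replicate 2: without it 9 were lower and 8 higher, and the median was -0.08. With total counts as the scale, the median of all genes was 0.38 and that of the 38 was 0.12. Then 3 of the 38 were lower and 10 higher, so the direction of the median rests on the scaling.

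In homozygous libraries the list stayed near level over the same interval: 9 of the 38 rose and 2 fell, against 19.6% and 15.8% of all genes tested, with a median log2 fold change of 0.06. For 13 genes all E9.5 libraries lay above all E9.0 libraries and for 3 below, against 26.0% and 22.1% of all genes tested. Etv2 fell here too, from 4.59, 6.47 and 6.15 CPM to 2.23, 1.93 and 1.61 CPM (log2 fold change -1.58 ± 0.22, edgeR adjusted p = 4.73e-05), and so did Egfl7, from 54.3, 57.5 and 55.3 CPM to 40.9, 38.9 and 41.4 CPM (log2 fold change -0.46 ± 0.08, edgeR adjusted p = 2.61e-04). These 2 were called lower in both genotypes. Robo4 (1.03 ± 0.28), Vwf (0.93 ± 0.15) and S1pr1 (0.82 ± 0.10) were called higher in both, with edgeR adjusted p of 0.00847, 1.31e-04 and 1.41e-05 in the homozygous libraries. Clec14a rose from 6.46, 7.16 and 4.66 CPM to 12.2, 9.46 and 13.1 CPM (log2 fold change 0.92 ± 0.19, edgeR adjusted p = 0.00127). Gja5 (0.58 ± 0.16), Pecam1 (0.57 ± 0.16), Icam2 (0.45 ± 0.16), Eng (0.44 ± 0.13) and Tie1 (0.34 ± 0.13) were the remaining genes with a higher log2 level past the threshold, and Tie1 lost the call in all 6 fits with a library left out (edgeR adjusted p 0.0501 to 0.143). Icam2 lost it in 4 (homozygous replicates 1 and 2 of either stage, up to 0.118), Eng in 2 (E9.0 replicate 2 and E9.5 replicate 3, up to 0.0862) and Pecam1 in 1 (E9.0 replicate 3, 0.0668). For the marker lists the median log2 fold changes here were 3.47 for heart muscle and endocardium, 1.73 for erythroid, 1.09 for mural, 0.96 for blood and 0.94 for ganglion neuron genes, -0.45 for neural crest genes and -0.23 for yolk sac endoderm genes. Whether the stage effect differed between genotypes is the test of the interaction given above, which called 0 of the 38. The stage and genotype comparisons share libraries and are set side by side here only.

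**Figure D4:**
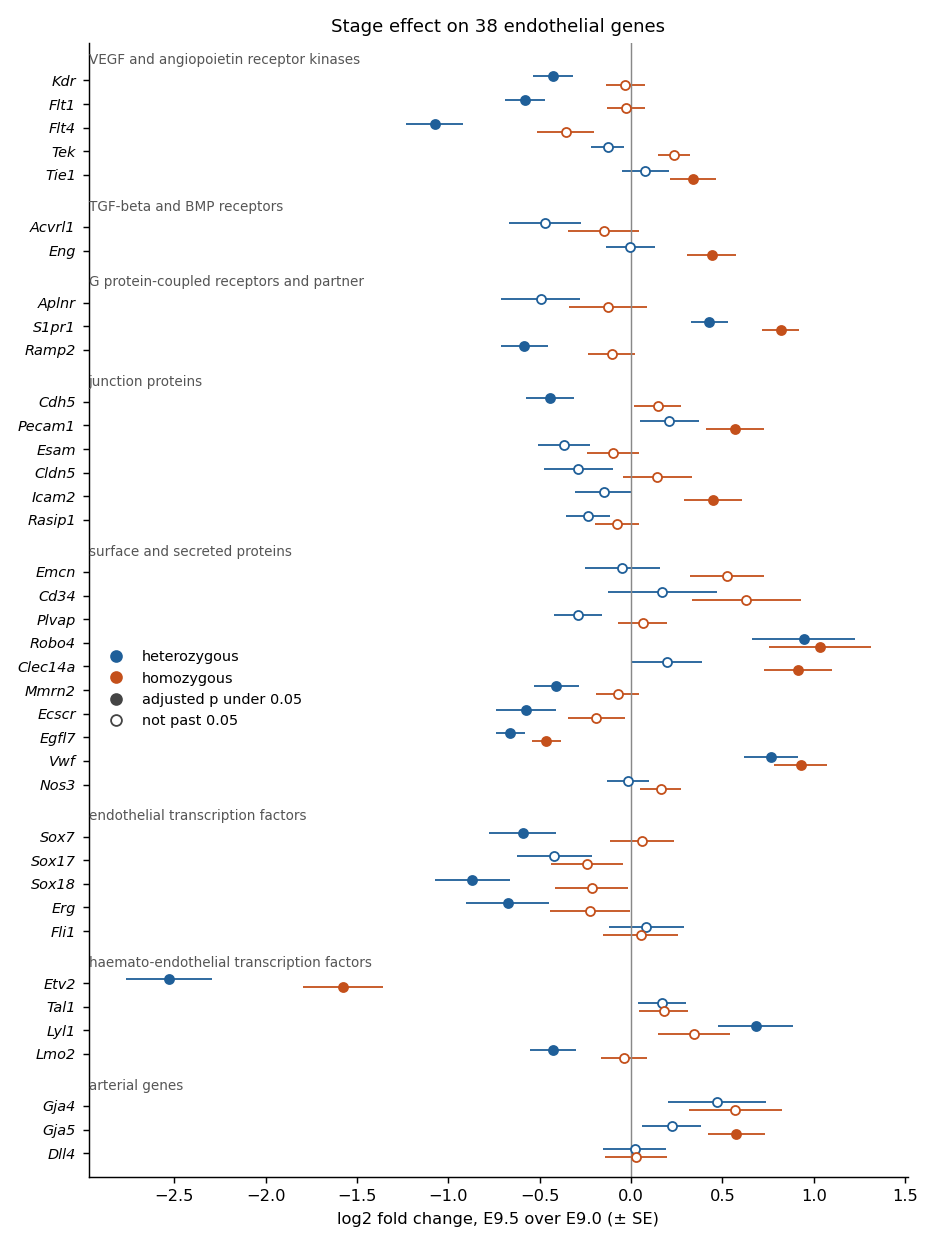
Log2 fold change of E9.5 over E9.0 libraries (x axis, whiskers ± SE) for each of the 38 endothelial genes (y axis, by role) in heterozygous (blue) and homozygous (orange) libraries; filled points have an adjusted p under 0.05. In heterozygous libraries 13 filled points lie left of 0 and 4 right, and in homozygous libraries 2 left and 9 right.

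Per kilobase of transcript, the group means of the 38 genes spanned a wide range of levels. The length used was that of 1 principal protein-coding transcript per gene. All annotated exons together were longer for Egfl7 (3581 against 1391 bases), Cd34 (7290 against 2454) and Kdr (9030 against 5924). The ranks given here rest on the length chosen. Egfl7 was the highest in each of the 4 groups, at 36.3, 40.0, 23.0 and 29.1 CPM per kb in heterozygous E9.0, homozygous E9.0, heterozygous E9.5 and homozygous E9.5 libraries in turn. Kdr was at 14.1, 16.7, 10.5 and 16.3 CPM per kb and Cd34 at 12.7, 12.6, 14.4 and 19.4 CPM per kb in the same order. At E9.5 Cd34 had the second highest mean in both genotypes, and at E9.0 Kdr did. Robo4, at 0.457, 0.573, 0.896 and 1.16 CPM per kb, and Vwf, at 0.522, 0.608, 0.882 and 1.15 CPM per kb, were among the lowest. All 38 passed the filter on low counts, and the smallest count of any of them in any library was 17.

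In 3 lists of other vascular genes, most estimates at E9.5 were also positive, and most genes did not pass the threshold. Of 24 vascular ligands and co-receptors tested, 5 were higher and 0 lower, against 1.19% and 0.702% of all genes tested. The median log2 fold change was 0.33, and 22 of 24 estimates were positive. Vegfc, the ligand of Flt4, was at 11.1, 8.39 and 11.1 CPM in heterozygous and 16.0, 13.1 and 13.4 CPM in homozygous libraries (log2 fold change 0.48 ± 0.11, edgeR adjusted p = 0.0360). Its co-receptor Nrp2 was at 94.7, 71.0 and 84.7 CPM against 149.9, 129.6 and 127 CPM (log2 fold change 0.70 ± 0.09, edgeR adjusted p = 0.00115). Pgf, the placental growth factor that binds Flt1, was at 3.57, 2.49 and 2.70 CPM against 5.67, 4.36 and 4.61 CPM (log2 fold change 0.74 ± 0.18, edgeR adjusted p = 0.0430). Cd93, a second binding partner of Mmrn2, had 0.80 ± 0.15 (0.0210) and Ptprb, the phosphatase that restrains Tek, 0.73 ± 0.13 (0.00662), both as log2 fold changes with edgeR adjusted p. Receptor and ligand were both called for Flt4 and Vegfc and for Flt1 and Pgf. Other listed ligands of called receptors (Vegfa, Vegfb, Vegfd, Angpt1 and Angpt2) were tested and not called. Gdf2 was the 1 listed gene left out by the filter on low counts.

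Among 15 genes of arterial, venous and lymphatic identity, 4 were higher at E9.5 and 0 lower, with a median log2 fold change of 0.18 and 14 of 15 estimates positive: the arterial factor Hey2 at 0.39 ± 0.09 (edgeR, adjusted p = 0.0468), the netrin receptor Unc5b at 0.44 ± 0.09 (0.0148), the lymphatic regulator Prox1 at 0.54 ± 0.11 (0.0210) and the scavenger receptor Stab1 at 0.60 ± 0.11 (0.00790). Prox1 and Hey2 are also made in other cells of the embryonic head. Beside these 4 calls and those of the next list, 1.19% of all genes tested were called higher and 0.702% lower. Among 26 other endothelial genes, 6 were higher and 0 lower, all 26 estimates were positive and the median log2 fold change was 0.49. These 6 were Hhex at 0.78 ± 0.18 (edgeR, adjusted p = 0.0365), Mef2c at 0.35 ± 0.08 (0.0400), Fgd5 at 0.63 ± 0.12 (0.0107), Arap3 at 0.49 ± 0.11 (0.0249), She at 0.70 ± 0.12 (0.00637) and Thbd at 0.66 ± 0.12 (0.0112). Without heterozygous replicate 2, calls went from 5 to 3 among the ligands and co-receptors, from 4 to 1 in the arterial, venous and lymphatic list and from 6 to 3 among the other endothelial genes, with medians of 0.21, 0.20 and 0.37. The share of all genes called in that fit is not given here. At E9.0 none of the genes in these 3 lists was called, and the medians were 0.10, 0.02 and 0.15.

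Markers of other cell types were measured beside the endothelial genes, and their part in the E9.5 difference was not tested. Over all genes tested at E9.5, 1.19% were called higher and 0.702% lower. Mural cell genes, which mark pericytes and smooth muscle, had 1 call of 10 tested, the smooth muscle gene Tagln at 0.47 ± 0.09 (edgeR, adjusted p = 0.0180), a median log2 fold change of 0.39 and a summed level of 603 to 632 CPM in heterozygous and 721 to 818 CPM in homozygous libraries, with no overlap. Heart muscle and endocardium genes had 1 call of 10, Nkx2-5 at 0.62 ± 0.15 (edgeR, adjusted p = 0.0444), a median of 0.32 and sums of 2053 to 2726 CPM against 2421 to 3219 CPM, which overlapped. Without heterozygous replicate 2, the mural list had 1 call and a median of 0.39, and the heart list had 0 calls and a median of 0.45. Erythroid genes went the other way: 0 of 10 tested were called (edgeR), 10 of 10 estimates were negative with a median of -0.20, and the sums were 4070 to 5308 CPM against 2843 to 5224 CPM. Of the erythroid list, Hbb-bt and Hbb-bs were at 0 in all 12 libraries and Hba-a1 and Hba-a2 held at most 3 counts, although near-identical globin copies share reads. Genes of blood progenitors, macrophages and megakaryocytes had 0 calls of 10, a median of 0.15 and sums of 22.9 to 25.5 CPM against 24.1 to 30.0 CPM. Yolk sac endoderm genes had 0 calls of 6 and a median of -0.21. Without heterozygous replicate 2 the yolk sac median was -0.50 over 7 genes tested, with 0 calls. Heterozygous E9.5 replicate 1 stood apart for the yolk sac list, at a sum of 38.4 CPM against 6.96 to 13.6 CPM in the other 11 libraries.

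Some neural crest and ganglion genes were called lower in homozygous libraries at E9.5, and 0 were called higher, against 0.702% and 1.19% of all genes tested. Of 7 crest genes 3 were called lower: Sox10 at -1.14 ± 0.21 (edgeR, adjusted p = 0.0148), Foxd3 at -1.80 ± 0.34 (0.0148) and Tfap2b at -1.15 ± 0.10 (1.99e-05), all as log2 fold changes. Of 11 ganglion neuron genes 2 were called lower, Pou4f1 at -0.95 ± 0.17 (0.0107) and Tubb3 at -0.69 ± 0.07 (1.72e-04) in the same edgeR fit. Over each list the median log2 fold change was -0.63 for the crest, with 0 of 7 estimates positive, and -0.34 for the ganglia, with 3 of 11 positive. Without heterozygous replicate 2, 2 crest genes and 2 ganglion genes were called lower, with medians of -0.82 and -0.19. Their summed levels were 218 to 290 CPM against 176 to 214 CPM for the crest and 178 to 216 CPM against 146 to 157 CPM for the ganglia, and their part in the endothelial difference was not tested. At E9.0 Tfap2b was the only gene of the 10 lists of other genes to be called, at -0.78 ± 0.10 (edgeR, adjusted p = 7.73e-04).

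**Figure D5:**
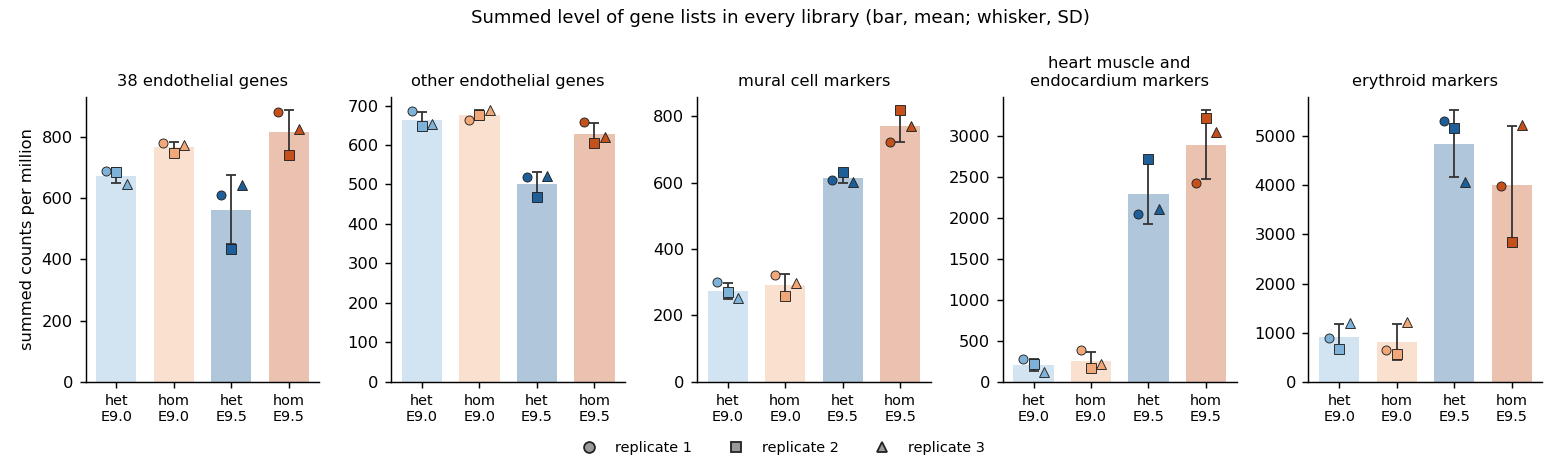
Summed CPM (y axis, from 0) of the 38 endothelial genes and of 4 other gene lists in all 12 libraries, grouped by genotype and stage (x axis); bars are means, whiskers SD (n = 3), and marker shapes give the replicate number. At E9.5 the homozygous libraries lie above the heterozygous ones for the 38 genes (743 to 883 against 435 to 644 CPM) and for mural markers, and overlap them for heart and erythroid markers.

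For 12 of the 38, exons share bases with another annotated gene, and the strand setting of the counts is not given in the sources used here, so reads cannot be told apart there. The longest overlaps were those of Rasip1 (1374 bases, with Izumo1, A030001D20Rik and Gm45437), Nos3 (1334 bases, with Atg9b and Gm15587) and Ramp2 (1103 bases, with Vps25 on the same strand). Of the 20 genes called at E9.5, Eng, Ecscr and Egfl7 also share bases, and the other 14 share none.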

How the data were processed

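RNA from 12 mouse embryo libraries was sequenced, and the authors deposited 1 table of raw counts for 24421 genes. Per the submitters' processing notes, cutadapt, STAR, featureCounts and MultiQC were used with the mm10 build; their versions, the gene annotation and the strand setting are not given in the sources used here. Groups were taken from the sample labels. Genes passing edgeR's low-count filter (14810) were scaled by TMM and fitted with edgeR 4.0.16 (R 4.3.3) in 1 quasi-likelihood model over the 4 groups; the 9611 genes left out held at most 0.0778% of a library's counts. Adjusted p is Benjamini-Hochberg over all genes tested, and log2 fold changes carry standard errors. CPM were computed from the counts and TMM library sizes. Rn45s stayed in the table, and its share of 37.4% in heterozygous E9.0 replicate 1 went with a TMM factor of 0.664, against 0.924 to 1.11 in the others. On data simulated for the E9.5 comparison (14674 genes), 92% of genes changed 1.5-fold and 100% of those changed 2-fold were recovered, with 11 unchanged genes called. The changed genes were drawn only from better expressed ones, and no simulated library was shifted as heterozygous E9.5 replicate 2 was for the 38. These shares therefore do not give the recovery to be had for the 38, least of all for the weakly expressed ones. The members and lists were chosen with earlier results of these data known. All 38 were counted, and full values were given for those called between genotypes, the 5 called with the largest stage effect in heterozygous libraries, the 3 with the largest difference between stages, the 3 lowest at E9.5, and the arterial and haemato-endothelial genes; other members were named after their values were seen, and genes of other lists where called between genotypes. Alternatives covered scaling, filters, DESeq2 1.42.0, limma-voom (limma 3.58.1), GC and length offsets, a replicate block, fewer groups, leaving out each library, and a threshold of 0.01. Coordinates are GRCm38.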

Additional observations from a re-analysis of the deposited data

How the results depend on the processing

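With total counts as the scale, 8 of the 38 endothelial genes were called higher at E9.5 (123 of all genes), 23 averaged over both stages, 10 higher and 3 lower with stage in heterozygous and 1 lower in homozygous libraries (3326 of all genes), and the medians of the 38 were 0.41 at E9.0, 0.16 for the difference between stages, 0.12 with stage in heterozygous and 0.23 in homozygous libraries. With only the groups compared, 7 were called at E9.5. Without both doubted libraries (heterozygous E9.0 replicate 1 and E9.5 replicate 2, a choice made after seeing the data), 12 were higher at E9.5, 8 higher and 7 lower with stage in heterozygous libraries, and the medians were 0.17 for the difference between stages and -0.0554 for that stage effect. At an adjusted p under 0.01, 5 were called at E9.5, 5 averaged, 2 higher and 7 lower with stage in heterozygous and 4 higher in homozygous libraries. At that threshold all genes gave 34 calls at E9.0, 81 at E9.5, 159 averaged, 1 for the difference between stages, and 3324 and 3384 with stage. DESeq2 called 24 of the 38 averaged, and its all-gene count for that comparison is not given here. It called 216 of all genes at E9.0, 448 at E9.5 and 76 for the difference between stages. With limma-voom, 51 of all genes were called at E9.0 and 5 for that difference. GC and length offsets gave 168 at E9.0, 679 averaged and 21 for the difference. The cause was not tested where the samples and threshold stayed the same.

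Replicate numbers did not pair the libraries (r from -0.238 to 0.161 between same-numbered libraries). With a replicate block 21 of the 38 were called at E9.5 and 18 averaged, against 20 and 15 without it. Calls over all genes in the block fit are not given here, so nothing particular to the 38 is read from these counts. With GC and length offsets in that fit as well, 1 was called at E9.0 (Mmrn2) and 17 of all genes for the difference between stages.

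With 1 library left out, calls among the 38 ranged from 0 to 0 at E9.0, 7 to 21 at E9.5 and 7 to 18 averaged, with stage from 3 to 8 higher and 9 to 17 lower in heterozygous and 6 to 8 higher and 2 to 3 lower in homozygous libraries. Medians ranged from 0.16 to 0.24 at E9.0, 0.44 to 0.70 at E9.5, 0.32 to 0.46 averaged, 0.21 to 0.48 for the difference between stages, -0.35 to -0.0839 with stage in heterozygous and -0.0363 to 0.15 in homozygous libraries. All genes gave 38 to 86 calls at E9.0, 133 to 252 at E9.5, 246 to 411 averaged, 1 to 16 for the difference, and 4088 to 4890 and 4060 to 4759 with stage.

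Small estimates changed sign. At E9.0, Icam2 was -0.00563 with limma-voom, -0.0181 with no filter, -0.0489 with GC and length offsets, -0.0451 with the block as well and -0.0603 without both doubted libraries. Cd34 was 0.00489 with upper-quartile scaling, 0.16 with total counts, 0.00357 with total counts without Rn45s, 0.0335 with GC and length offsets and 0.0129 with the block as well. Etv2 was -0.0151 and -0.0250 in those last fits, and Tal1 0.13 with total counts. At E9.5, Fli1 was -0.0107 with total counts, -0.00451 with total counts without Rn45s and -0.23 without both doubted libraries. With 1 library left out, E9.0 estimates ran from -0.0741 to 0.15 for Flt4, -0.0129 to 0.14 for Ramp2, -0.0176 to 0.22 for Cdh5, -0.0922 to 0.0663 for Icam2, -0.0575 to 0.17 for Emcn, -0.17 to 0.0758 for Cd34, -0.0540 to 0.12 for Fli1, -0.0138 to 0.22 for Etv2 and -0.17 to 0.0632 for Tal1, and E9.5 estimates from -0.22 to 0.14 for Fli1 and -0.20 to 0.0765 for Tal1. Depth limits Robo4 and Etv2 most, with 17 and 18 counts in their lowest libraries.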
